A study of Mus musculus with 47 samples.

Results

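The 10 genes described here mark macrophages or their activation: the surface receptors Csf1r, Adgre1, Cx3cr1, Mrc1 and Cd14, the lysosomal proteins Cd68 and Ctss, and the secreted products Lyz2, Mmp12 and Cxcl16. They were chosen by symbol from a table of 22474 mouse genes, on earlier results for the diet comparisons of these samples, and all 10 passed the expression filter that left 18786 genes for testing. RNA-seq had been run on 47 kidney samples (labelled metanephros, the embryonic name of the organ) in a study of genotype-by-diet interaction with type 2 diabetes models. The mice were inbred NZO/HlLtJ, CAST/EiJ and C57BL/6J, wild type and otherwise untreated, of both sexes, fed a diet with 44% or 10% fat, each with fiber, from 6 weeks of age and sampled at 15 weeks. The protocol calls the 44% fat diet high in fat and sugar. Each of the 12 combinations of strain, sex and diet had 4 libraries, except CAST/EiJ males on 10% fat with 3, and nothing in the labels says whether a library was 1 animal. NZO/HlLtJ is a polygenic obese strain prone to diabetes, CAST/EiJ is derived from wild mice, and C57BL/6J is the common laboratory strain.

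Macrophages lie between the kidney tubules from birth, where they take up debris and antigen, and monocytes from the blood add to them in injury. Their survival depends on the receptor kinase encoded by Csf1r, which binds the cytokines Csf1 and Il34. Adgre1 encodes F4/80, the classical mouse macrophage antigen, Cx3cr1 the receptor for the membrane-bound chemokine Cx3cl1, Mrc1 the mannose receptor, and Cd14 the co-receptor that hands bacterial lipopolysaccharide to Tlr4 and Ly96. Cd68 is a glycoprotein of late endosomes and lysosomes, Ctss the protease cathepsin S that trims the invariant chain of class II antigen presentation, and Lyz2 the lysozyme of myeloid cells. Mmp12 is the macrophage elastase, and Cxcl16 is a membrane-bound chemokine and scavenger receptor whose receptor is Cxcr6. Cd14 and Cxcl16 are also made by kidney epithelial cells. In RNA from whole tissue, fewer macrophages and less RNA per macrophage cannot be told apart.

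The proximal promoters of Ctss, Cd68 and Mmp12 are shown as examples of members whose RNA levels moved together from library to library. Their pairs had Pearson r of 0.68 to 0.81 with group means removed, and 0.41 to 0.56 without 3 libraries described below. They were not the closest set, since Ctss moved more closely with Lyz2 (r = 0.84), whose window is shown further on. Each window runs from 250 bases before to 50 bases after a RefSeq transcription start in GRCm38.p6, is written 5′ to 3′ on the gene's strand, and has GAGGAA, the core bound by the macrophage factor PU.1 and other ETS factors, in capitals on either strand (TTCCTC on the reverse).
Ctss, chr3:95526536-95526835, plus strand: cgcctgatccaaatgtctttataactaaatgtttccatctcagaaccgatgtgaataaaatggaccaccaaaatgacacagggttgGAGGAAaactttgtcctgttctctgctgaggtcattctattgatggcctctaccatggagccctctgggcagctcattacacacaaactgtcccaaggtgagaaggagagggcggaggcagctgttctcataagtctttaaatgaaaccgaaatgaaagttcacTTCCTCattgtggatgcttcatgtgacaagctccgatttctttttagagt
Cd68, chr11:69666121-69666420, minus strand: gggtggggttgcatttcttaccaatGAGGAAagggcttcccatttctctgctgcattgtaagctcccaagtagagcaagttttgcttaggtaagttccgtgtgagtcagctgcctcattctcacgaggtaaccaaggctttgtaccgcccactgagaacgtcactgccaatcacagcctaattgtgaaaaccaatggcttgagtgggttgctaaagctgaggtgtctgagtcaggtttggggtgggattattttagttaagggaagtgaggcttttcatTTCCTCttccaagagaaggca
Mmp12, chr9:7344147-7344446, plus strand: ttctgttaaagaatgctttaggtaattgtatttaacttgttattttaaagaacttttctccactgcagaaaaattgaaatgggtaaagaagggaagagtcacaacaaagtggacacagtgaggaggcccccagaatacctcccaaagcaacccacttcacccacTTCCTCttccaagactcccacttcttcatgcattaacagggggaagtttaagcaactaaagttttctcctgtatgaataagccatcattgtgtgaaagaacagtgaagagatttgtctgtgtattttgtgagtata
Of the 6 member genes with a window (Cx3cr1, Mrc1, Cd68, Ctss, Lyz2 and Mmp12), GAGGAA was found in 4: with 3 matches in Mrc1, 2 in Cd68, 2 in Ctss and 1 in Mmp12. The same letters occur in 28.3% of the 32851 mouse promoter windows. TTGCNNAA, the core of C/EBP sites, matched once each in Cd68 and in this Mmp12 window, against 10.8% of all windows. TGANTCA, the AP-1 site, matched 2 times in Cd68 and 1 time in a further Mmp12 window, not shown, against 7.8% of all windows. Both strands were searched, and a base could count for more than 1 motif. The Lyz2 window matched none of these motifs. The matches describe the letters in the windows and are no evidence of binding, or of a link between a motif and shared RNA levels.

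Lyz2 has a close copy, Lyz1, next to it on chromosome 10, and their windows are shown because reads could be split between the genes. The capitals mark the 99 of 300 positions at which the windows differ when laid side by side from their first base without gaps. Bases that match only after a shift are also in capitals, so the 99 positions overstate how far the windows differ.
Lyz2, chr10:117282223-117282522, minus strand: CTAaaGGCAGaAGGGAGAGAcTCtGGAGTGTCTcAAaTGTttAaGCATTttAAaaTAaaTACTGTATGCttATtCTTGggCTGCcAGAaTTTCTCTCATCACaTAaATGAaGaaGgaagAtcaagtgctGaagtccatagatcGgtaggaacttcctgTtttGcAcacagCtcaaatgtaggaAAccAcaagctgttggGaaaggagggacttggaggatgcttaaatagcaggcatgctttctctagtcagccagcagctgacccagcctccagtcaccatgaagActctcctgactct
Lyz1, chr10:117292819-117293118, minus strand: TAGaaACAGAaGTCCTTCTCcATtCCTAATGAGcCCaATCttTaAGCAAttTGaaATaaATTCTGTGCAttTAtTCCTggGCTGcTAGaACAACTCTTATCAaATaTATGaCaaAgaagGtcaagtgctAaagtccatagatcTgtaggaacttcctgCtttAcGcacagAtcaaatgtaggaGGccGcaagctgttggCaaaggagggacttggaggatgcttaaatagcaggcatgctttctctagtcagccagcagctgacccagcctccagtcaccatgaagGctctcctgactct
Laid side by side without gaps, the windows were 67.0% identical, a value that shifted stretches lower. In their last 100 bases, which hold the start, they differed at 1 position. Of all stretches of 31 bases in Lyz2 transcripts, 32.81% also occurred in Lyz1.

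The libraries held 34.4 to 58.4 M counts (median 44.8 M), M standing for mega as in CPM, the counts-per-million scale. Transcripts of the mitochondrial genome made up 10.7% to 15.5% of counts. All 8 markers of kidney epithelium were detected in every group, with a summed level of 12229 to 19444 CPM, and Xist and Ddx3y matched the labelled sex in all 47 libraries. The sample numbers form 3 runs of 16, 16 and 15 libraries, called ID runs here because the labels do not say what they are, and every test carried them as a term. For the ID run itself no gene passed the threshold in edgeR's quasi-likelihood test, with 1258 genes at an unadjusted p under 0.05 against 939 expected. In 3 libraries the macrophage genes stood above the rest of their group: NZO/HlLtJ females on 44% fat replicate 2, C57BL/6J males on 44% fat replicate 3 and CAST/EiJ females on 44% fat replicate 1. Calls that changed without these 3 libraries are given with and without them.

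**Figure D1:**
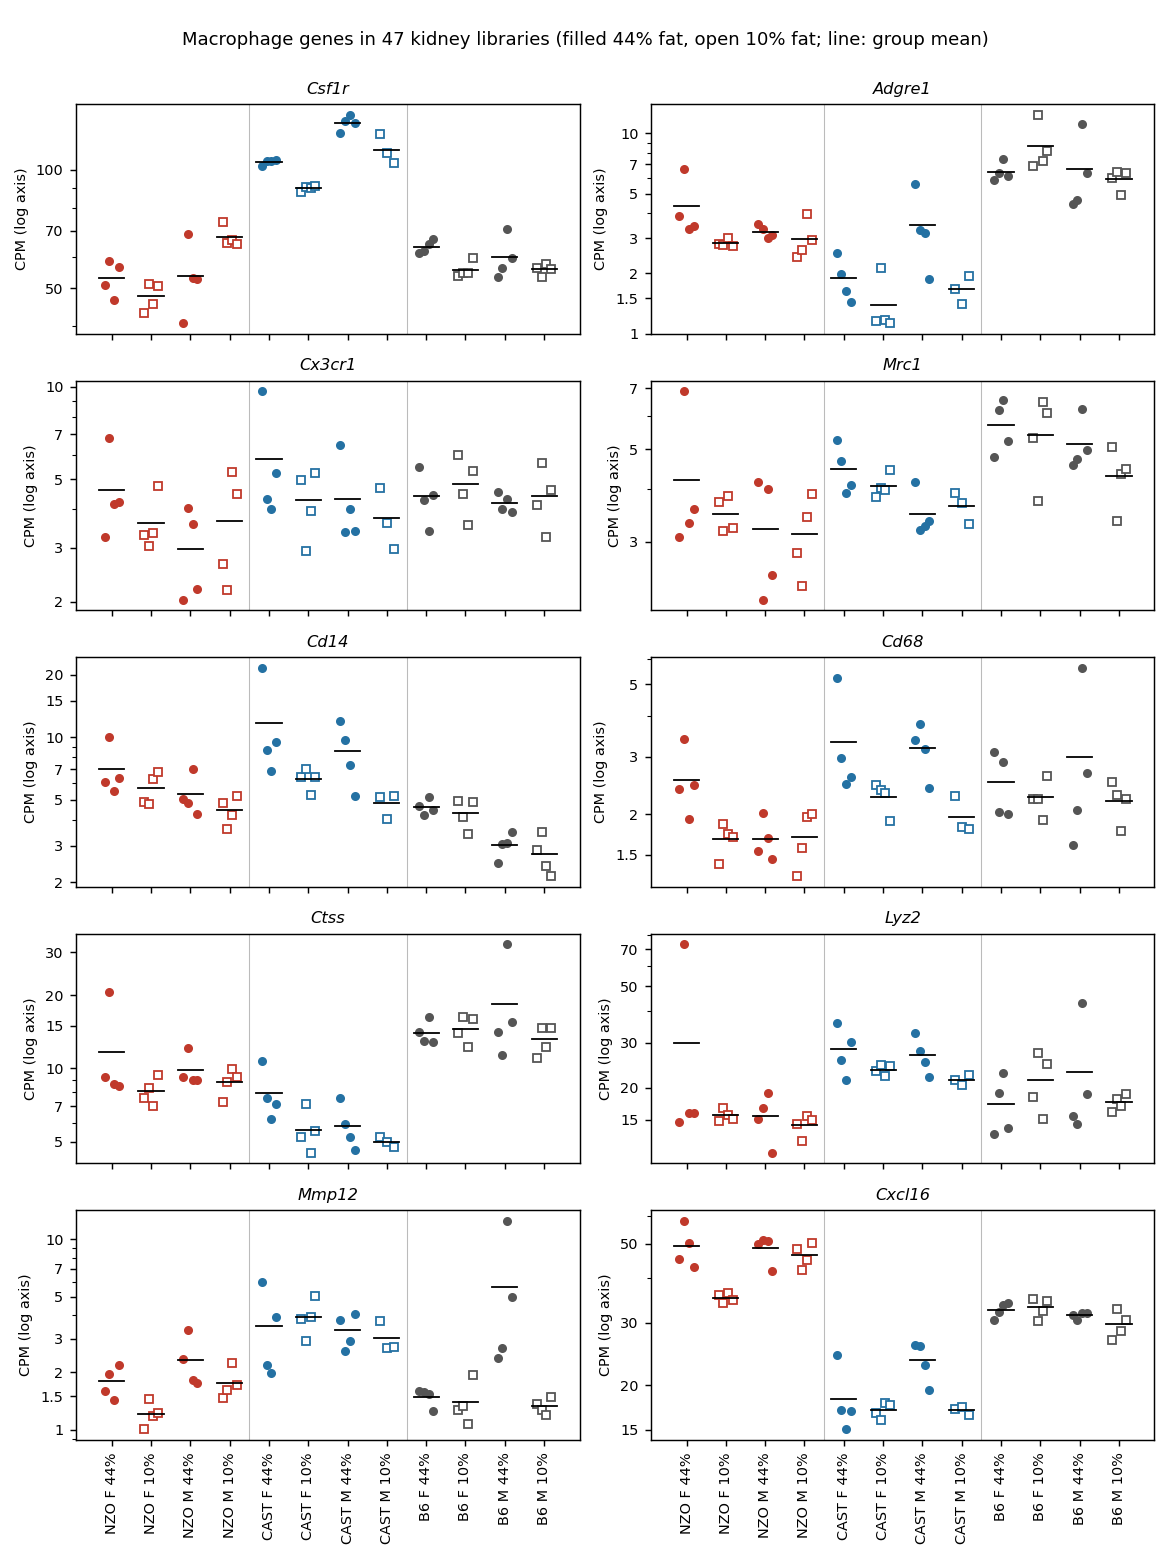
CPM (log axis) of each macrophage gene in all 47 libraries, by strain (NZO, NZO/HlLtJ; CAST, CAST/EiJ; B6, C57BL/6J), sex (F, M) and % fat, with filled circles for 44% fat, open squares for 10% fat and a line at the group mean. Csf1r was highest in CAST/EiJ, Cxcl16 in NZO/HlLtJ and Adgre1 and Ctss in C57BL/6J, and 1 filled circle each in NZO F 44%, CAST F 44% and B6 M 44% lies above its group for many genes.

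On the scale of CPM per kilobase of exon, which allows genes to be set against each other, Lyz2 led in C57BL/6J on 10% fat with a mean level of 14.8, ahead of Cxcl16 at 10.4, Ctss at 10.2 and Csf1r at 9.65. Adgre1 at 2.25, Cd14 at 2.04, Cd68 at 1.77 and Cx3cr1 at 1.03 formed a middle range. Mrc1 at 0.764 and Mmp12 at 0.189 were lowest. Every member had reads in every library, with the lowest count at 45 for Mmp12.

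In the order of the 12 group means, neighbouring groups without overlap occurred for 3 members only: Csf1r, Adgre1 and Cxcl16. The share of all genes with such steps was not determined. The steps therefore describe these members and do not set them apart from other genes. Mean Csf1r ranged 2.76-fold, with CAST/EiJ males on 44% fat first at 132 ± 5.86 CPM and NZO/HlLtJ females on 10% fat last at 47.6 ± 3.83 CPM (SD, n = 4 each). In that order 3 steps separated groups whose libraries did not overlap. Mean Adgre1 ranged 6.22-fold, with C57BL/6J females on 10% fat first at 8.68 ± 2.52 CPM and CAST/EiJ females on 10% fat last at 1.40 ± 0.485 CPM (SD, n = 4 each), and 1 step was free of overlap. Cxcl16 had 2 such steps, between NZO/HlLtJ females on 44% fat at 49.3 ± 6.62 CPM (SD, n = 4) and CAST/EiJ males on 10% fat at 17.0 ± 0.443 CPM (SD, n = 3). For Cx3cr1, Mrc1, Cd14, Cd68, Ctss, Lyz2 and Mmp12 each group overlapped the next in the order.

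The strain comparison on 10% fat asked how the genes differ by genotype in mice kept on the low-fat diet. Adgre1 and Ctss were lower, and Cd14 higher, in both NZO/HlLtJ and CAST/EiJ than in C57BL/6J. Cxcl16 was higher in NZO/HlLtJ and lower in CAST/EiJ, and Csf1r and Mmp12 were higher in CAST/EiJ. The test was edgeR's quasi-likelihood test over both sexes, and a call is a Benjamini-Hochberg adjusted p under 0.05 over all 18786 genes. Strain changed much of the transcriptome, so each count of members stands beside the share of all genes called. In NZO/HlLtJ against C57BL/6J, 5 of 10 members were called, 2 higher and 3 lower, beside 36.9% of all genes. In CAST/EiJ against C57BL/6J 6 were called, 3 each way, beside 60.0% of all genes, and in NZO/HlLtJ against CAST/EiJ 6, 3 each way, beside 59.1%. These shares of members are near those of all genes, so the counts alone set the members apart from nothing. The members' median log2 fold changes were -0.39, -0.16 and -0.19 in that order, beside 0.00, 0.01 and -0.01 over all genes. Without the 3 high libraries, which are all on 44% fat but enter the shared estimate of spread, 7 members were called in each comparison. The additional calls were Cd68 (-0.40, edgeR adjusted p = 0.011) and Lyz2 (-0.36, adjusted p = 0.014) in NZO/HlLtJ over C57BL/6J, Mrc1 (-0.32, adjusted p = 0.024) in CAST/EiJ over C57BL/6J and Cd68 (-0.33, adjusted p = 0.031) in NZO/HlLtJ over CAST/EiJ.

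Of the receptors, Adgre1 (chr17:57358686-57483529, plus strand) differed most. On 10% fat its levels were 2.42 to 3.94 CPM in NZO/HlLtJ (median 2.79, n = 8) and 1.13 to 2.12 CPM in CAST/EiJ (median 1.41, n = 7), against 4.91 to 12.4 CPM in C57BL/6J (median 6.65, n = 8). No library of either strain reached the lowest C57BL/6J library. The log2 fold change was -1.31 ± 0.19 (SE) for NZO/HlLtJ over C57BL/6J (edgeR adjusted p = 4.7e-07) and -2.22 ± 0.21 for CAST/EiJ over C57BL/6J (adjusted p = 1.1e-11). NZO/HlLtJ lay above CAST/EiJ by 0.92 ± 0.22 (adjusted p = 0.00038), and within each sex those ranges did not overlap either.

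Csf1r showed another order. On 10% fat CAST/EiJ had 87.7, 90.3, 89.8 and 90.9 CPM in females and 123, 110 and 104 CPM in males, against 53.8, 54.7, 54.5 and 59.6 CPM in C57BL/6J females and 56.2, 53.4, 57.7 and 55.9 CPM in C57BL/6J males. Every CAST/EiJ library lay above every C57BL/6J library, with a log2 fold change of 0.85 ± 0.07 (SE, edgeR adjusted p = 9.7e-15). NZO/HlLtJ had 43.3, 51.1, 45.6 and 50.6 CPM in females and 73.6, 65.1, 66.2 and 64.6 CPM in males. The NZO/HlLtJ females thus lay wholly below the C57BL/6J females and the NZO/HlLtJ males wholly above the C57BL/6J males, and the mean over both sexes did not pass the test (log2 fold change 0.03 ± 0.06, adjusted p = 0.79). So the strain with the lowest Adgre1 had the highest Csf1r.

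Cd14 was higher in both strains. On 10% fat it ranged 3.60 to 6.77 CPM in NZO/HlLtJ (median 4.85, n = 8) and 4.02 to 6.99 CPM in CAST/EiJ (median 5.25, n = 7), against 2.13 to 4.91 CPM in C57BL/6J (median 3.44, n = 8). The pooled ranges overlapped, but within each sex CAST/EiJ lay wholly above C57BL/6J, as did NZO/HlLtJ males. The log2 fold changes were 0.52 ± 0.18 for NZO/HlLtJ (edgeR adjusted p = 0.020) and 0.68 ± 0.19 for CAST/EiJ (adjusted p = 0.0019). The NZO/HlLtJ call was lost when NZO/HlLtJ females on 10% fat replicate 4 or NZO/HlLtJ males on 10% fat replicate 4 was left out.

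Mrc1 was lower in NZO/HlLtJ at 2.35 to 3.91 CPM (median 3.34, n = 8), against 3.35 to 6.4965 CPM in C57BL/6J (median 4.78, n = 8), a log2 fold change of -0.55 ± 0.15 (edgeR adjusted p = 0.0023), although these ranges overlapped. CAST/EiJ over C57BL/6J was -0.33 ± 0.15 and missed the threshold (adjusted p = 0.058). Cx3cr1, whose levels ran 2.19 to 5.29 CPM in NZO/HlLtJ, 2.93 to 5.24 CPM in CAST/EiJ and 3.24 to 5.99 CPM in C57BL/6J, was called in no strain comparison on 10% fat, with values between -0.38 ± 0.19 and -0.15 ± 0.20.

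Of the lysosomal and secreted products, Ctss (chr3:95526786-95556403, plus strand) followed Adgre1. On 10% fat it measured 7.01 to 9.91 CPM in NZO/HlLtJ (median 8.58, n = 8) and 4.505 to 7.13 CPM in CAST/EiJ (median 5.23, n = 7), against 11.0 to 16.2 CPM in C57BL/6J (median 14.3, n = 8). Neither strain overlapped C57BL/6J. The log2 fold changes were -0.74 ± 0.18 for NZO/HlLtJ (edgeR adjusted p = 0.00097) and -1.40 ± 0.19 for CAST/EiJ (adjusted p = 8.2e-08), and NZO/HlLtJ exceeded CAST/EiJ by 0.66 ± 0.19 (adjusted p = 0.0036).

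Mmp12 was highest in CAST/EiJ on 10% fat. It stood at 2.70 to 5.01 CPM in CAST/EiJ (median 3.71, n = 7), against 1.08 to 1.94 CPM in C57BL/6J (median 1.30, n = 8) and 1.01 to 2.26 CPM in NZO/HlLtJ (median 1.46, n = 8), so that the CAST/EiJ libraries lay above all others. CAST/EiJ over C57BL/6J was 1.30 ± 0.22 on the log2 scale (edgeR adjusted p = 2.7e-06) and NZO/HlLtJ over CAST/EiJ -1.21 ± 0.22 (adjusted p = 8.1e-06). NZO/HlLtJ over C57BL/6J was 0.09 ± 0.22 and did not pass.

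Cxcl16 (chr11:70453983-70459984, minus strand) was highest in NZO/HlLtJ and lowest in CAST/EiJ. On 10% fat NZO/HlLtJ had 36.0, 34.1, 36.3 and 34.7 CPM in females and 48.4, 42.2, 45.1 and 50.3 CPM in males. CAST/EiJ had 16.8, 16.0, 17.9 and 17.6 CPM in females and 17.1, 17.4 and 16.6 CPM in males. C57BL/6J had 35.1, 30.5, 32.4 and 34.7 CPM in females and 26.9, 32.8, 28.6 and 30.5 CPM in males. CAST/EiJ lay below both other strains without overlap, and NZO/HlLtJ males lay above C57BL/6J males, while the females of those 2 strains overlapped. The log2 fold changes were 0.35 ± 0.07 for NZO/HlLtJ over C57BL/6J (edgeR adjusted p = 4.7e-05), -0.88 ± 0.07 for CAST/EiJ over C57BL/6J (adjusted p = 5.5e-14) and 1.24 ± 0.07 for NZO/HlLtJ over CAST/EiJ (adjusted p = 2.0e-18).

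Lyz2 stood at 12.4 to 16.7 CPM in NZO/HlLtJ and 20.5 to 24.5 CPM in CAST/EiJ, against 15.1 to 27.3 CPM in C57BL/6J. The first 2 ranges did not overlap, and NZO/HlLtJ over CAST/EiJ was -0.61 ± 0.26 (edgeR adjusted p = 0.045), a call that was lost when any 1 of the 15 libraries compared was left out. Its copy Lyz1 averaged 0.0643 CPM in NZO/HlLtJ, 0.788 CPM in CAST/EiJ and 0.111 CPM in C57BL/6J on 10% fat. Over both diets, Lyz2 counts were not whole in all 15 CAST/EiJ libraries, but in only 7 NZO/HlLtJ and 6 C57BL/6J libraries. Reads divided between the copies can therefore enter the Lyz2 values, and their part was not tested. Cd68, at 1.29 to 2.00 CPM in NZO/HlLtJ, 1.80 to 2.45 CPM in CAST/EiJ and 1.78 to 2.63 CPM in C57BL/6J, was called in no strain comparison on 10% fat (the lowest edgeR adjusted p was 0.068).

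**Figure D2:**
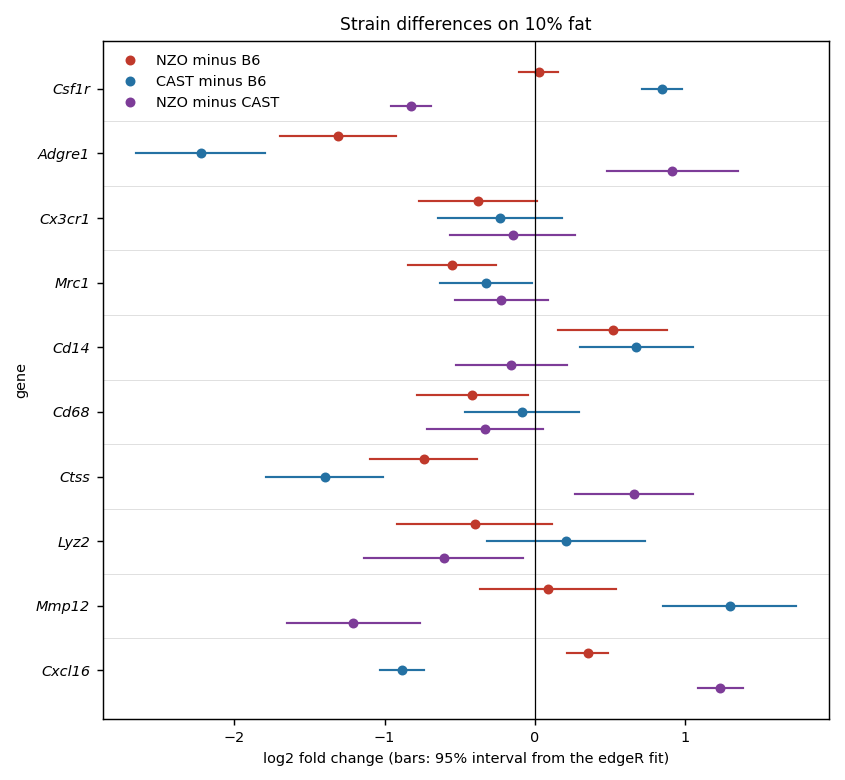
Log2 fold changes on 10% fat for each macrophage gene, with 95% intervals from the edgeR fit, for NZO/HlLtJ minus C57BL/6J (red), CAST/EiJ minus C57BL/6J (blue) and NZO/HlLtJ minus CAST/EiJ (purple). Adgre1 (-1.31 and -2.22) and Ctss (-0.74 and -1.40) lie left of 0 in both comparisons with C57BL/6J, and Csf1r (0.85), Mmp12 (1.30) and Cxcl16 (-0.88) separate CAST/EiJ.

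Counting bears on some of these values. The GRCm38 exons of Csf1r (chr18:61105572-61132149, plus strand) overlap those of Hmgxb3 on the other strand by 873 bases, and those of Cxcl16 overlap Zmynd15 by 552 bases. The deposited counts of Csf1r and Cxcl16 were not whole numbers (to within 1e-06) in any of the 47 libraries, and whether counting used the strand is not given in the sources used here. Mmp12 counts were not whole in 8 CAST/EiJ, 5 NZO/HlLtJ and 4 C57BL/6J libraries. Its exons overlap those of Mmp1b on the other strand by 157 bases, and Mmp1b was not among the counted genes. On 10% fat Hmgxb3 had log2 fold changes of 0.53 for NZO/HlLtJ and 0.21 for CAST/EiJ over C57BL/6J, against 0.03 and 0.85 for Csf1r. Zmynd15 had -0.07 for NZO/HlLtJ and -1.13 for CAST/EiJ over C57BL/6J, beside 0.35 and -0.88 for Cxcl16. On 10% fat Zmynd15 averaged 7.61 CPM in NZO/HlLtJ, 3.62 CPM in CAST/EiJ and 7.92 CPM in C57BL/6J. Cxcl16 averaged 40.9, 17.1 and 31.4 CPM in that order. Hmgxb3 averaged 47.6, 37.2 and 32.7 CPM in the same order, against 57.5, 99.4 and 55.7 CPM of Csf1r. In NZO/HlLtJ on 10% fat Hmgxb3 averaged 39.9 CPM in females and 55.2 CPM in males, beside 47.6 and 67.4 CPM of Csf1r. CAST/EiJ also carries many sequence differences from the reference strain C57BL/6J, and whether reads were aligned to strain genomes is not given in the sources used here. How much any of this moved the fold changes was not tested.

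On 44% fat the calls of Adgre1, Ctss, Cd14 and Cxcl16 against C57BL/6J had the same directions as on 10% fat. The 44% fat libraries entered the diet results on which the members were chosen. The p-values on 44% fat are therefore not independent of that choice and are given as a description. Mmp12 in CAST/EiJ against C57BL/6J did not pass (0.30 ± 0.20, edgeR adjusted p = 0.20), and Csf1r was called in NZO/HlLtJ. In NZO/HlLtJ against C57BL/6J, 8 members were called, 2 higher and 6 lower, beside 42.2% of all genes. In CAST/EiJ against C57BL/6J 6 were called, 2 higher and 4 lower, beside 62.4% of all genes. In NZO/HlLtJ against CAST/EiJ 8 were called, 3 higher and 5 lower, beside 61.7%. Without the 3 high libraries the members called numbered 6, 9 and 8 in that order. The additional calls in CAST/EiJ over C57BL/6J were Cd68 (0.35, edgeR adjusted p = 0.020), Lyz2 (0.65, adjusted p = 2.5e-05) and Mmp12 (0.44, adjusted p = 0.0089), and Lyz2 was then called lower in NZO/HlLtJ than in CAST/EiJ (-0.76, adjusted p = 3.5e-06). Adgre1 was again lower in NZO/HlLtJ (-0.83 ± 0.19, edgeR adjusted p = 0.00051) and CAST/EiJ (-1.37 ± 0.19, adjusted p = 8.9e-08) than in C57BL/6J, as were Ctss (-0.61 ± 0.18 and -1.25 ± 0.18) and Mrc1 (-0.57 ± 0.15 and -0.45 ± 0.14).

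Cd14 on 44% fat ranged 4.28 to 10.0 CPM in NZO/HlLtJ and 5.20 to 21.6 CPM in CAST/EiJ, against 2.48 to 5.13 CPM in C57BL/6J (n = 8 each). No CAST/EiJ library fell below the highest C57BL/6J library, with a log2 fold change of 1.38 ± 0.18 (edgeR adjusted p = 1.1e-08), and NZO/HlLtJ exceeded C57BL/6J by 0.65 ± 0.18 (adjusted p = 0.0030). Cd14 in CAST/EiJ was itself past the threshold in the diet comparison, so its strain value on 44% fat is no independent result. Csf1r on 44% fat was 40.7 to 68.5 CPM in NZO/HlLtJ and 102 to 138 CPM in CAST/EiJ, against 53.3 to 70.7 CPM in C57BL/6J. NZO/HlLtJ was lower than C57BL/6J by a small amount (-0.21 ± 0.06, adjusted p = 0.0081) and lower than CAST/EiJ by more (-1.14 ± 0.06, adjusted p = 6.0e-19).

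Several calls on 44% fat rest on few libraries. Cd68 (-0.44 ± 0.18, edgeR adjusted p = 0.047) and Mmp12 (-0.52 ± 0.21, adjusted p = 0.044) were called lower in NZO/HlLtJ than in C57BL/6J, but each had that sign in 1 of 3 ID runs, and each call was lost in 9 of 16 fits that left out 1 library. Both were lost without C57BL/6J females replicate 1 or 3, C57BL/6J males replicate 3, NZO/HlLtJ females replicate 1 or 3, or NZO/HlLtJ males replicate 1, 3 or 4, and in addition Cd68 without NZO/HlLtJ females replicate 4 and Mmp12 without C57BL/6J females replicate 2. Without the 3 high libraries the values were -0.24 for Cd68 (adjusted p = 0.15) and -0.22 for Mmp12 (adjusted p = 0.25). Adgre1 in NZO/HlLtJ over CAST/EiJ (0.55 ± 0.20, adjusted p = 0.015) had that sign in 2 of 3 ID runs and was lost without NZO/HlLtJ females on 44% fat replicate 2. Cx3cr1 in NZO/HlLtJ over CAST/EiJ (-0.48 ± 0.20, adjusted p = 0.031) was lost without any 1 of 5 libraries: CAST/EiJ females replicate 1, CAST/EiJ males replicate 1, NZO/HlLtJ females replicate 1, and NZO/HlLtJ males replicates 1 and 4. It was -0.43 without the 3 high libraries (adjusted p = 0.053). Of 147 within-run values of the members called by strain, sex or diet, 142 had the pooled sign. The same libraries gave the pooled sign and only called members were counted, so this agreement was largely set in advance.

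Other macrophage genes on a list of 20, of which 19 were in the table, were mostly lower in both strains than in C57BL/6J on 10% fat. In NZO/HlLtJ 0 were higher and 13 lower, with a median log2 fold change of -0.58 over the 19. The perforin-like Mpeg1 (-1.03 ± 0.15, edgeR adjusted p = 7.6e-07), the Fc receptor Fcgr3 (-1.02 ± 0.15), the Fc receptor chain Fcer1g (-1.12 ± 0.19) and the complement gene C1qb (-0.78 ± 0.13) were among them. In CAST/EiJ 2 were higher and 13 lower with a median of -0.69, including the lysosomal Laptm5 (-1.04 ± 0.18), Fcer1g (-1.13 ± 0.20) and C1qb (-0.90 ± 0.14). The membrane protein gene Ms4a7 had the lowest adjusted p there (6.9e-13), but almost no reads in CAST/EiJ, so its fold change is not given. These counts stand beside 36.9% of all genes called for NZO/HlLtJ and 60.0% for CAST/EiJ. Adgre1 and Ctss were lower in both strains, and Csf1r, Cd14 and Cxcl16 were not lower in both.

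Markers of other blood cells moved with the strains too. Of 5 pan-leukocyte genes, 0 were higher and 5 lower in NZO/HlLtJ than in C57BL/6J, and 1 was higher and 4 lower in CAST/EiJ. Lcp1, an actin-bundling protein, was lower in both (-1.26 ± 0.11 and -1.08 ± 0.12). Of 6 dendritic cell genes 5 were lower in each, with Itgax at -1.45 ± 0.21 in NZO/HlLtJ and -2.58 ± 0.24 in CAST/EiJ. All 8 T and NK cell genes were lower in CAST/EiJ, where their summed level was 0.437 to 1.22 CPM on 10% fat, against 2.64 to 4.31 CPM in C57BL/6J, and 1 of the 8 was lower in NZO/HlLtJ. All of these counts are on 10% fat and stand beside 36.9% of all genes called in NZO/HlLtJ and 60.0% in CAST/EiJ. The part of these blood cells in the macrophage values was not tested.

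The ligands and partners of the receptors were a list of 9 genes. In NZO/HlLtJ against C57BL/6J on 10% fat 2 were higher and 3 lower, including Csf1, a Csf1r ligand (-0.53 ± 0.08, edgeR adjusted p = 1.9e-06), Ly96 (-0.89 ± 0.14), and Cx3cl1, the ligand of Cx3cr1 (-0.43 ± 0.08). The sheddase Adam17 was higher (0.26 ± 0.05). In CAST/EiJ 3 were higher and 3 lower: Tlr4 was higher (1.14 ± 0.10, adjusted p = 1.5e-12), while Ly96 (-1.50 ± 0.15), Cx3cl1 (-0.71 ± 0.08) and the Cxcl16 receptor Cxcr6 (-2.53 ± 0.39) were lower. In NZO/HlLtJ against CAST/EiJ 4 were higher and 3 lower, with Tlr4 at -1.35 ± 0.11 and Cxcr6 at 1.90 ± 0.40. The counts of the 9 genes stand beside 36.9%, 60.0% and 59.1% of all genes called, in the order of these comparisons. CAST/EiJ thus had more Cd14 and Tlr4 RNA but less Ly96 than C57BL/6J, and less of both Cxcl16 and its receptor.

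The sexes were compared within each strain over both diets, since the study used both. Over both diets, Csf1r and Cxcl16 were called lower in females of NZO/HlLtJ and CAST/EiJ, and Adgre1 in CAST/EiJ females. Cd14 was called higher in CAST/EiJ and C57BL/6J females, and Mmp12 lower in C57BL/6J females. In NZO/HlLtJ the Csf1r and Cxcl16 means differed mainly on 10% fat. The Cxcl16 means in CAST/EiJ and the Mmp12 means in C57BL/6J differed mainly on 44% fat. The members called were 2 of 10 in NZO/HlLtJ beside 49.9% of all genes, 4 in CAST/EiJ beside 47.6%, and 2 in C57BL/6J beside 47.9%. The median member fold change was 0.22, 0.14 and 0.08 in that order, beside 0.04, 0.05 and 0.05 over all genes. Without the 3 high libraries it was 0.04, 0.00 and 0.13, with 3, 3 and 4 members called. Mmp12 was then called lower in NZO/HlLtJ females (-0.48, edgeR adjusted p = 0.0061), and Adgre1 (0.41, adjusted p = 0.023) and Mrc1 (0.31, adjusted p = 0.038) higher in C57BL/6J females.

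Csf1r in NZO/HlLtJ was 43.3 to 58.6 CPM in females (median 50.7), against 40.7 to 73.6 CPM in males (median 64.8, n = 8 each), a log2 fold change of -0.26 ± 0.06 (edgeR adjusted p = 0.00070). On 10% fat these sexes did not overlap, and on 44% fat they did, with means of 53.2 CPM in females and 53.8 CPM in males. In CAST/EiJ it was 87.7 to 106 CPM in females (median 96.6, n = 8), against 104 to 138 CPM in males (median 124, n = 7), a difference of -0.33 ± 0.06 (adjusted p = 4.4e-05), without overlap on either diet. In C57BL/6J it was 53.8 to 66.7 CPM in females, against 53.3 to 70.7 CPM in males, with 0.05 ± 0.06 (adjusted p = 0.56). The sex difference itself differed from C57BL/6J in NZO/HlLtJ (-0.31 ± 0.09, adjusted p = 0.035) and in CAST/EiJ (-0.38 ± 0.09, adjusted p = 0.0028). The CAST/EiJ difference passed in 31 of 31 fits that left out 1 library and the NZO/HlLtJ difference in 21 of 32. It was lost without NZO/HlLtJ females on 44% fat replicate 1 or 3, NZO/HlLtJ females on 10% fat replicate 1 or 3, NZO/HlLtJ males on 44% fat replicate 2 or on 10% fat replicate 1. It was also lost without C57BL/6J females replicate 4 on either diet, C57BL/6J males on 44% fat replicate 1 or 2, or on 10% fat replicate 2.

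Cxcl16 in NZO/HlLtJ was 34.1 to 58.1 CPM in females, against 42.1 to 51.3 CPM in males, and on 10% fat the sexes did not overlap (log2 fold change -0.19 ± 0.07 over both diets, edgeR adjusted p = 0.016). On 44% fat they overlapped, with means of 49.3 CPM in NZO/HlLtJ females and 48.6 CPM in males. In CAST/EiJ it was 15.1 to 24.3 CPM in females, against 16.6 to 26.0 CPM in males (-0.18 ± 0.07, adjusted p = 0.037), a call kept only without CAST/EiJ females on 44% fat replicate 1, CAST/EiJ females on 10% fat replicate 3 or 4, or CAST/EiJ males on 44% fat replicate 3 or 4, of the 15 libraries left out in turn. The CAST/EiJ means were 17.1 CPM in females and 17.0 CPM in males on 10% fat, and 18.3 and 23.5 CPM on 44% fat. In C57BL/6J Cxcl16 was 30.5 to 35.1 CPM in females, against 26.9 to 32.8 CPM in males (0.11 ± 0.07, adjusted p = 0.19). The difference between the CAST/EiJ and C57BL/6J values passed (-0.29 ± 0.10, adjusted p = 0.047), but was kept in only 7 of 31 fits that left out 1 library: without CAST/EiJ females on 44% fat replicate 1, CAST/EiJ females on 10% fat replicate 3 or 4, CAST/EiJ males on 44% fat replicate 4, C57BL/6J females on 44% fat replicate 1, C57BL/6J females on 10% fat replicate 2 or C57BL/6J males on 10% fat replicate 2. Only ID run 77 held both sexes of NZO/HlLtJ on the same diet, and there Csf1r differed by -0.26 and Cxcl16 by -0.17.

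Cd14 was 3.40 to 5.13 CPM in C57BL/6J females, against 2.13 to 3.48 CPM in C57BL/6J males (log2 fold change 0.62 ± 0.18, edgeR adjusted p = 0.0050), and on 44% fat no library overlapped. CAST/EiJ females over males was 0.42 ± 0.18 (adjusted p = 0.049) and 0.19 (adjusted p = 0.32) without CAST/EiJ females on 44% fat replicate 1, and it was also lost without CAST/EiJ females on 10% fat replicate 1, 2 or 4, or CAST/EiJ males on 10% fat replicate 1 or 2 or on 44% fat replicate 3 or 4. NZO/HlLtJ females over males was 0.37 ± 0.17 and missed the threshold (adjusted p = 0.075). Mmp12 was 1.08 to 1.94 CPM in C57BL/6J females, against 1.1989 to 12.5 CPM in C57BL/6J males (-0.71 ± 0.22, adjusted p = 0.0070), and -0.43 (adjusted p = 0.036) without C57BL/6J males on 44% fat replicate 3. On 10% fat its means were 1.40 CPM in C57BL/6J females and 1.33 CPM in males, with overlap, so the difference lay on 44% fat. Those libraries entered the diet results on which the members were chosen, so these Mmp12 p-values are not independent of that choice. Adgre1 in CAST/EiJ was 1.13 to 2.53 CPM in females, against 1.41 to 5.57 CPM in males (-0.57 ± 0.22, adjusted p = 0.029), a call lost without CAST/EiJ females on 10% fat replicate 1, 3 or 4 or on 44% fat replicate 3 or 4, or CAST/EiJ males on 44% fat replicate 1 or on 10% fat replicate 3. Without C57BL/6J males on 44% fat replicate 3, Adgre1 was also called higher in C57BL/6J females (0.41, adjusted p = 0.043), against 0.23 ± 0.19 with it.

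**Figure D3:**
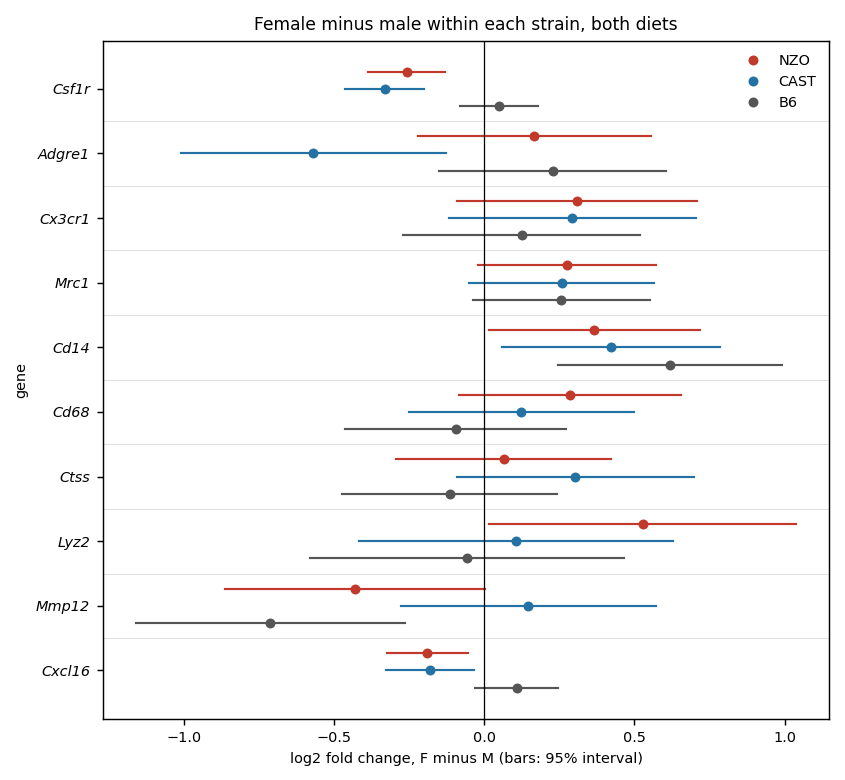
Log2 fold changes of females minus males over both diets for each macrophage gene, with 95% intervals from the edgeR fit, in NZO/HlLtJ (red), CAST/EiJ (blue) and C57BL/6J (grey). Csf1r lies left of 0 in NZO/HlLtJ (-0.26) and CAST/EiJ (-0.33) and at 0.05 in C57BL/6J, and Cd14 lies right of 0 in all 3 strains (0.37, 0.42 and 0.62).

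Over all members the difference between strains in the sex effect was called for 1 gene in NZO/HlLtJ against C57BL/6J beside 4.95% of all genes, for 2 in CAST/EiJ against C57BL/6J beside 13.2%, and for 0 in NZO/HlLtJ against CAST/EiJ beside 14.3%, where 1 member had an unadjusted p under 0.05 in edgeR and DESeq2 called 0. Without the 3 high libraries the counts were 2, 3 and 1 in that order, with the additional calls Cxcl16 in NZO/HlLtJ against C57BL/6J (-0.35, edgeR adjusted p = 0.0040) and Adgre1 in CAST/EiJ against C57BL/6J (-1.07, adjusted p = 0.00093) and in NZO/HlLtJ against CAST/EiJ (0.69, adjusted p = 0.042). Of the 19 other macrophage genes 0 differed by sex in NZO/HlLtJ, 1 in CAST/EiJ (Cybb, an oxidase subunit, 0.34 ± 0.14) and 1 in C57BL/6J (Mertk, an engulfment receptor, 0.15 ± 0.05), all higher in females. Beside them, 49.9%, 47.6% and 47.9% of all genes were called by sex in the same order. The Csf1r ligands differed by sex in opposite directions. Il34 was lower in females of NZO/HlLtJ (-1.89 ± 0.16), CAST/EiJ (-1.03 ± 0.16) and C57BL/6J (-2.05 ± 0.17), and Csf1 was higher (0.49 ± 0.08, 0.35 ± 0.08 and 0.35 ± 0.08 in the same order, edgeR adjusted p of 0.00057 or less for each). Lbp, which delivers lipopolysaccharide to Cd14, was higher in females of all 3 strains (0.69 ± 0.11, 0.41 ± 0.12 and 0.49 ± 0.11). Hmgxb3, which shares exon bases with Csf1r, was lower in females by -0.43, -0.48 and -0.25 in that order, and its part in the Csf1r difference was not tested.

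The diet comparison, 44% against 10% fat within each strain, is given as a description only, since the genes were chosen on results of it. The members' values lay mostly above 0: 9 of 10 in NZO/HlLtJ with a median log2 fold change of 0.27, 10 of 10 in CAST/EiJ with 0.32 and 8 of 10 in C57BL/6J with 0.14, beside medians of 0.00 over all genes in each strain. Past the threshold were Cxcl16 in NZO/HlLtJ (1 of 10 members, beside 3.62% of all genes), Cd14 and Cxcl16 in CAST/EiJ (2 of 10, beside 0.990%) and Mmp12 in C57BL/6J (1 of 10, beside 0.0266%). Without the 3 libraries named above the medians were 0.15, 0.23 and 0.04 in the same order, with 7, 9 and 6 values above 0. Past the threshold were then Cxcl16 in NZO/HlLtJ, Cd14 and Csf1r in CAST/EiJ (Csf1r at 0.23) and Mmp12 in C57BL/6J. Only ID run 77 held both diets of NZO/HlLtJ in the same sex, and there Cxcl16 differed by 0.36.

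Cxcl16 in NZO/HlLtJ females was 45.4, 58.1, 50.4 and 43.2 CPM on 44% fat, against 36.0, 34.1, 36.3 and 34.7 CPM on 10% fat, without overlap (log2 fold change 0.47 ± 0.10). In NZO/HlLtJ males it was 49.965, 51.3, 51.0 and 42.1 CPM on 44% fat, against 48.4, 42.2, 45.1 and 50.3 CPM on 10% fat (0.07 ± 0.10). In CAST/EiJ males it was 26.0, 25.8, 22.8 and 19.5 CPM on 44% fat, against 17.1, 17.4 and 16.6 CPM on 10% fat, again without overlap (0.47 ± 0.11). The 44% fat values thus stood apart in NZO/HlLtJ females and CAST/EiJ males. In CAST/EiJ females they were 24.3, 17.1, 15.1 and 17.0 CPM, against 16.8, 16.0, 17.9 and 17.6 CPM on 10% fat, and only replicate 1 lay above the rest. Over both sexes of CAST/EiJ the value was 0.29 ± 0.07, and 0.21 without the 3 high libraries, then short of the threshold. It passed in 5 of 15 fits that left out 1 library: CAST/EiJ females on 44% fat replicate 2 or 3, CAST/EiJ females on 10% fat replicate 3, or CAST/EiJ males on 44% fat replicate 3 or 4. C57BL/6J gave -0.02 ± 0.09 in females and 0.08 ± 0.10 in males.

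Cd14 in CAST/EiJ females was 21.6, 8.73, 6.89 and 9.53 CPM on 44% fat, against 6.42, 6.99, 5.25 and 6.45 CPM on 10% fat (log2 fold change 0.85 ± 0.24). In CAST/EiJ males it was 11.985, 9.72, 7.38 and 5.20 CPM on 44% fat, against 5.15, 4.02 and 5.22 CPM on 10% fat (0.82 ± 0.27). The ranges overlapped in both sexes by the lowest library on 44% fat. Over both sexes the value was 0.84 ± 0.18, and 0.61 without the 3 high libraries, and it fell short of the threshold without CAST/EiJ males on 10% fat replicate 1 or 2. It was 0.26 ± 0.17 in NZO/HlLtJ and 0.13 ± 0.18 in C57BL/6J.

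Mmp12 in C57BL/6J males was 2.37, 2.70, 12.5 and 4.98 CPM on 44% fat, against 1.37, 1.27, 1.1989 and 1.48 CPM on 10% fat, without overlap (log2 fold change 2.00 ± 0.30). In C57BL/6J females it was 1.59, 1.58, 1.54 and 1.26 CPM on 44% fat, against 1.27, 1.33, 1.08 and 1.94 CPM on 10% fat (0.14 ± 0.30). The mean over both sexes, 1.07 ± 0.21, was 0.74 without C57BL/6J males on 44% fat replicate 3, and then missed the threshold. The call was kept in 4 of 16 fits that left out 1 library, namely C57BL/6J males on 44% fat replicate 1 or 2, C57BL/6J females on 44% fat replicate 4, or C57BL/6J males on 10% fat replicate 2, and in 2 of 11 other settings. It was 0.46 ± 0.21 in NZO/HlLtJ and 0.07 ± 0.21 in CAST/EiJ.

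Csf1r differed in direction by strain and sex. In NZO/HlLtJ males it was 40.7, 68.5, 53.0 and 52.9 CPM on 44% fat, against 73.6, 65.1, 66.2 and 64.6 CPM on 10% fat (log2 fold change -0.31 ± 0.09), the only group in which its 44% fat mean was lower. In CAST/EiJ females it was 102, 105, 105 and 106 CPM on 44% fat, against 87.7, 90.3, 89.8 and 90.9 CPM on 10% fat (0.23 ± 0.09), and in CAST/EiJ males 124, 133, 138 and 132 CPM, against 123, 110 and 104 CPM (0.23 ± 0.10). In C57BL/6J females it was 61.3, 62.1, 64.8 and 66.7 CPM on 44% fat, against 53.8, 54.7, 54.5 and 59.6 CPM on 10% fat (0.20 ± 0.09). The last 3 pairs did not overlap. Cd68 on 44% fat lay wholly above 10% fat in NZO/HlLtJ females (0.55 ± 0.26) and in CAST/EiJ females (0.56 ± 0.25) and males (0.72 ± 0.28), and Adgre1 did so in NZO/HlLtJ females (0.64 ± 0.28).

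Among the remaining members Adgre1 was 0.36 ± 0.19 in NZO/HlLtJ, 0.73 ± 0.22 in CAST/EiJ and -0.13 ± 0.18 in C57BL/6J over both sexes. Lyz2 (0.52 ± 0.25, 0.30 ± 0.26 and 0.04 ± 0.25 in that order) and Ctss (0.34 ± 0.18, 0.36 ± 0.19 and 0.21 ± 0.17) were above 0 in each strain. Mrc1 lay between 0.05 and 0.17 and Cx3cr1 between -0.11 and 0.34. The difference in diet effect between strains was past the threshold for 0 members in NZO/HlLtJ against C57BL/6J (beside 0.0373% of all genes), 0 in CAST/EiJ against C57BL/6J (0.0532%) and 0 in NZO/HlLtJ against CAST/EiJ (1.28%). In edgeR 3, 4 and 2 members had an unadjusted p under 0.05 in that order, and DESeq2 put 0, 0 and 1 past the threshold, the 1 being Csf1r, which was also past it in edgeR without the 3 high libraries (-0.34).

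**Figure D4:**
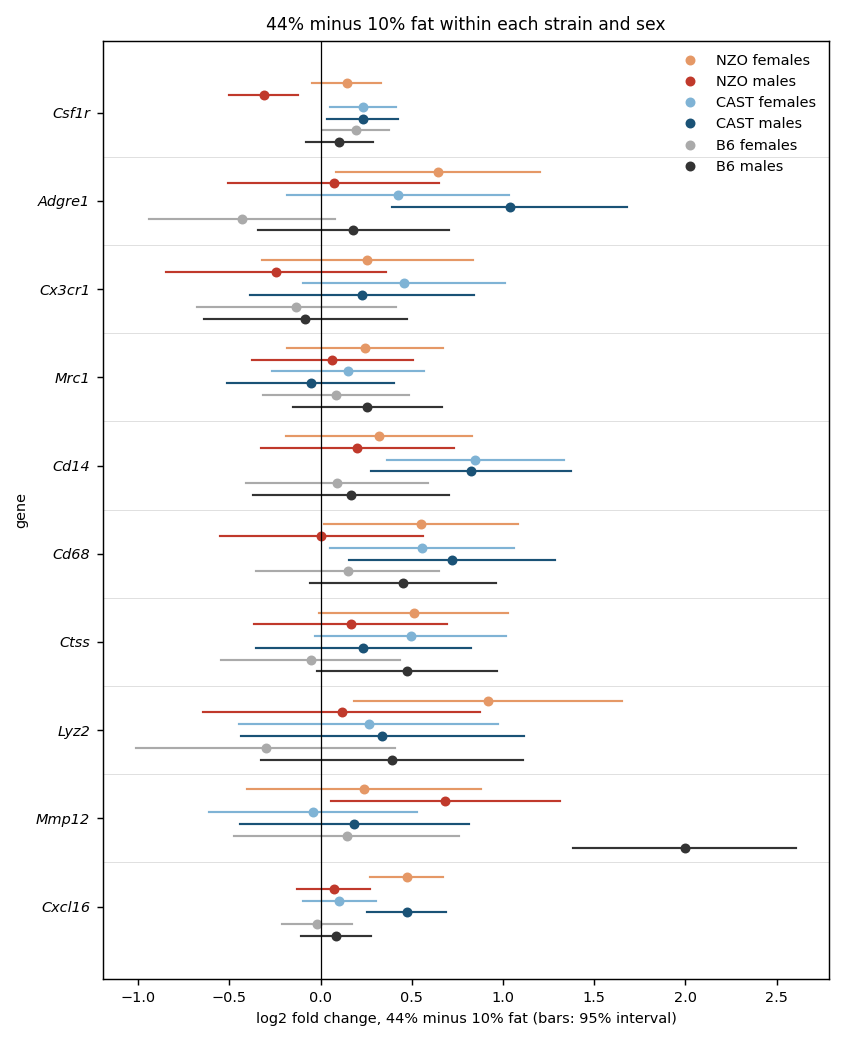
Log2 fold changes of 44% minus 10% fat for each macrophage gene within NZO/HlLtJ, CAST/EiJ and C57BL/6J females and males, with 95% intervals from the edgeR fit, as a description. Most points lie right of 0, Mmp12 in C57BL/6J males is farthest right at 2.00, and Csf1r in NZO/HlLtJ males lies left of 0 at -0.31.

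Of the 19 other macrophage genes, 17 had a diet value above 0 in NZO/HlLtJ (median 0.24), 18 in CAST/EiJ (0.39) and 15 in C57BL/6J (0.17), and the number past the threshold was 1 (Fcgr3, 0.62 ± 0.15), 0 and 0 in that order. The share of all genes past it was 3.62%, 0.990% and 0.0266% in the same order. Of 8 genes of tubular injury, Havcr1, the injury marker KIM-1 (2.02 ± 0.35), and Clu (1.19 ± 0.17) were higher on 44% fat in CAST/EiJ and Spp1 in NZO/HlLtJ (0.40 ± 0.09). Their summed level in CAST/EiJ females was 1887 to 3156 CPM on 44% fat, against 1394 to 1709 CPM on 10% fat. Spp1 is also made by activated macrophages. Whether tubular injury had a part in the members' values was not tested.

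Deviations are given here as log2 CPM minus the mean of the other libraries of the group. In the 3 libraries that stood apart, the members were high together with markers of some other cells. Pan-leukocyte genes were above the group in 5 of 5 cases in each, with a median deviation of 1.49, 0.74 and 0.70 in the NZO/HlLtJ, C57BL/6J and CAST/EiJ library. Neutrophil genes had medians of 1.49, 0.31 and 1.34. Neutrophil and adipocyte medians were not particular to these libraries. The neutrophil median was 1.52 in NZO/HlLtJ females on 10% fat replicate 4 and 1.47 in C57BL/6J females on 44% fat replicate 1. The adipocyte median was 2.80 in CAST/EiJ females on 44% fat replicate 2. In NZO/HlLtJ females on 44% fat replicate 2 all 10 members lay above their group, with a median deviation of 0.79. Lyz2 was 73.2 CPM there, against 14.6 to 16.0 CPM in the other 3 libraries, and Ctss 20.6 CPM, against 8.47 to 9.21 CPM. Of the other macrophage genes 18 of 19 were above (median 1.08), as were 6 of 6 B cell genes (3.45), whose summed level was 17.4 CPM beside a group median of 1.82, 8 of 8 T and NK cell genes (2.13) and 5 of 5 adipocyte genes (1.26).

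In C57BL/6J males on 44% fat replicate 3 all 10 members were above their group (median deviation 0.76), led by Mmp12. Cd68 was 5.62 CPM there, against 1.60 to 2.68 CPM in the other 3 libraries, and Adgre1 11.1 CPM, against 4.43 to 6.32 CPM. Of the other macrophage genes 17 of 19 were above (0.94), as were 8 of 8 T and NK cell genes (0.60) and 6 of 6 dendritic cell genes (0.51). The B cell genes had a median of -0.04 and the adipocyte genes of -0.55. In CAST/EiJ females on 44% fat replicate 1, 9 of 10 members were above (0.61), led by Cd14, and 8 of 8 tubular injury genes were above (1.38). The other macrophage genes were above in 17 of 19 cases there (0.58), as were 6 of 6 B cell genes (1.24), 7 of 8 T and NK cell genes (1.18) and 5 of 5 adipocyte genes (1.08). What sets these libraries apart was not tested.

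**Figure D5:**
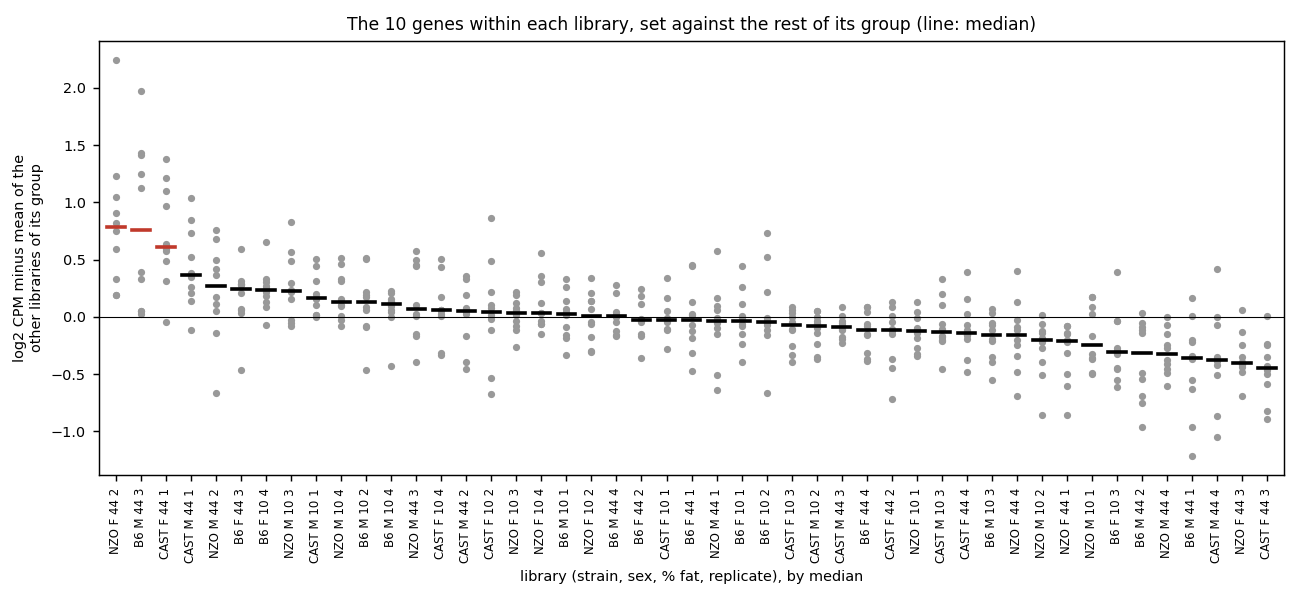
For each library, the log2 CPM of the 10 macrophage genes minus the mean of the other libraries of its group (points) and their median (line), with libraries ordered by that median. The 3 libraries with red lines have medians of 0.79, 0.76 and 0.61, above all others.

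With group means removed, the members were correlated across the 47 libraries by a median Pearson r of 0.44 over their pairs, and 0.29 without the 3 high libraries. The closest pairs were Ctss with Lyz2 (r = 0.84, and 0.57 without the 3), Ctss with Adgre1 (0.82 and 0.69), Mmp12 with Cd68 (0.81 and 0.56), Cd68 with Ctss (0.76 and 0.51) and Cd14 with Cxcl16 (0.76 and 0.58). The median r with the other members was lowest for Csf1r at 0.22, and without the 3 libraries lowest for Mrc1 at 0.08, with Csf1r at 0.10. Points share a library's dissection, depth and scaling, so these values are a description.

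Csf1r, Cxcl16 and Mmp12 were set against 12723 expressed genes by the same measure. The genes most like Csf1r were H2-DMb1 (r = 0.69), Ace (0.69), Cd74 (0.65), Pnpla3 (0.65) and Aadat (0.64), of which H2-DMb1 and Cd74 belong to class II antigen presentation and Ace is the angiotensin-converting enzyme. Those most like Cxcl16 were Nfkb2 (0.79), S100a11 (0.79), Akr1b8 (0.78), Tmsb10 (0.78) and Anxa2 (0.78). Those most like Mmp12 were Cd68 (0.81), Ttc39b (0.76), and the macrophage genes C3ar1 (0.72), Mpeg1 (0.72) and Cybb (0.72). The 3 lists had no gene in common.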

How the data were processed

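Per gene and for all 47 libraries, the authors deposited expected counts, of which 21% were not whole, and a variance-stabilized matrix on a log2 scale. Per the labels' protocols, polyA RNA with spike-in RNA was made into libraries and sequenced as 100 bp paired ends to a target of 30 M pairs, and the submitters' processing notes name GRCm38 and DESeq2. The aligner, counter and counting strand are not given in the sources used here. Counts were rounded. Genes were filtered by filterByExpr over the 12 groups, scaled by TMM and fitted in edgeR 4.0.16 (R 4.3.3, limma 3.58.1) with group means and ID run, by the quasi-likelihood test with Benjamini-Hochberg adjustment over 18786 genes. This procedure was tested on simulated counts with known changes. CPM, the counts-per-million scale, was computed from the rounded count and the TMM-scaled library size. Replicate numbers were given in accession order, and p-values set a difference between groups against the spread between samples, which may be in part technical. The members and all lists were chosen with earlier results of these data known. Libraries of both diets entered those results, so the strain and sex p-values are not fully independent of the choice. Genes named beside the members were the 4 with the lowest adjusted p in a list and comparison and the 5 most correlated genes. Alternatives included DESeq2 1.42.0, limma-voom and leaving out libraries or runs. Depth limits precision most for Mmp12, Adgre1 and Cd68.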

Additional observations from a re-analysis of the deposited data

Results flagged for a closer look

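Within groups of 4 libraries, 110 tests for a lone high or low library marked 11 values, 9 high and 2 low; chance marks about 1 in 20. NZO/HlLtJ females on 44% fat replicate 2 was far above its group for Adgre1 (6.65 CPM, others 3.32 to 3.85), Mrc1 (6.88 CPM, others 3.08 to 3.60), Ctss (20.6 CPM, others 8.47 to 9.21) and Lyz2 (73.2 CPM, others 14.6 to 16.0). C57BL/6J males on 44% fat replicate 3 was far above its group for Lyz2 (43.1 CPM, others 14.4 to 18.9). NZO/HlLtJ males on 44% fat replicate 2 was high for Ctss (12.1 CPM, others 8.94 to 9.24) and replicate 4 low for Cxcl16 (42.1 CPM, others 49.965 to 51.3). CAST/EiJ males on 44% fat replicate 1 was high for Mrc1 (4.18 CPM, others 3.19 to 3.36), and CAST/EiJ females on 10% fat replicate 2 for Adgre1 (2.12 CPM, others 1.13 to 1.17). C57BL/6J females on 10% fat replicate 4 was high for Csf1r (59.6 CPM, others 53.8 to 54.7), and on 44% fat replicate 4 was low for Mmp12 (1.26 CPM, others 1.54 to 1.59).

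The female minus male difference in Csf1r differed between NZO/HlLtJ and C57BL/6J by -0.31 and between CAST/EiJ and C57BL/6J by -0.38 on the log2 scale, and that in Cxcl16 between CAST/EiJ and C57BL/6J by -0.29, each past the threshold of edgeR's test of the difference itself.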

How the results depend on the processing

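Of 198 counts of called members under alternatives other than single libraries, 151 stayed within 1.5 times, 32 were lower and 15 higher, and of 1486 values of single genes called, 1270 kept the call, 216 lost it and 0 changed sign. On 10% fat the strain calls of Csf1r, Adgre1, Ctss, Mmp12 and Cxcl16 were kept in every alternative, as was the Mrc1 call in NZO/HlLtJ against C57BL/6J. For the other calls the counts moved as follows, and the cause was not tested. The diet count in C57BL/6J was 1, and 0 with no expression filter, no ID run term, DESeq2, limma-voom, the deposited variance-stabilized matrix, a fit of that strain alone, or any ID run left out. The diet count in CAST/EiJ was 2, with 5 by DESeq2, 1 with the variance-stabilized matrix, with that strain alone, or without ID run 77 or 81, and 0 without run 89. In NZO/HlLtJ it was 1, and 0 without run 77 or 81. NZO/HlLtJ against C57BL/6J on 44% fat called 8, but 3 without run 81 and 2 without run 89. By sex, C57BL/6J called 2, with 4 by limma-voom or without the 3 high libraries and 1 with that strain alone or without run 89. CAST/EiJ called 4, with 1 in the variance-stabilized matrix or without run 89 and 2 without run 77 or 81. NZO/HlLtJ called 2, with 4 for that strain alone and 5 without run 89. The difference in diet effect between NZO/HlLtJ and CAST/EiJ called 0, and 1 (Csf1r) by DESeq2, limma-voom, without run 77 or without the 3 libraries. The difference in sex effect called 1 in NZO/HlLtJ against C57BL/6J, with 2 by DESeq2, limma-voom or without the 3 libraries and 0 with the variance-stabilized matrix or without run 81 or 89. It called 2 in CAST/EiJ against C57BL/6J, with 1 under DESeq2 size factors, no filter, the variance-stabilized matrix or those strains alone, 4 with no run term and 0 without run 81. It called 0 in NZO/HlLtJ against CAST/EiJ, and 1 (Adgre1) without run 89 or the 3 libraries. Leaving out 1 library at a time, the counts ran 1 to 1 for diet in NZO/HlLtJ, 0 to 3 in CAST/EiJ and 0 to 1 in C57BL/6J. On 10% fat they ran 4 to 6 for NZO/HlLtJ and 6 to 7 for CAST/EiJ against C57BL/6J and 5 to 5 for NZO/HlLtJ against CAST/EiJ, and on 44% fat 6 to 8, 6 to 9 and 7 to 8. By sex they ran 2 to 3 in NZO/HlLtJ, 1 to 3 in CAST/EiJ and 2 to 3 in C57BL/6J, for differences in diet effect 0 to 0, 0 to 0 and 0 to 1, and for differences in sex effect 0 to 2, 1 to 3 and 0 to 1. Leaving out the 3 high libraries was chosen after seeing the data. No paired analysis was possible because the replicate numbers were given in accession order and pair no samples.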
